A study of Mus musculus with 10 samples.

Results

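The matrix proteases, their inhibitors and the matrix crosslinkers were examined as 1 gene module in murine KPC orthotopic pancreatic tumors. The module was defined by gene symbol: each protein-coding gene named Mmp, Timp or Adamts followed by a number, together with Lox, Loxl1 to Loxl4 and Tgm2, with a mean of at least 1 normalized count over the 10 tumors. Of 55359 genes in the deposited table, 52 carried such a symbol and 48 met the rule: 21 matrix metalloproteinases (MMPs), 4 tissue inhibitors of metalloproteinases (TIMPs), 17 ADAMTS proteases and 6 crosslinkers. Mmp1b, Adamts18 and Adamts19 had means under 1, and Mmp1a is annotated as a polymorphic pseudogene. The 10 tumors sequenced were 5 from normoglycemic mice on regular water (CTRL) and 5 from mice given water with 30% dextrose (D30). All 10 tumors arose from luciferase-expressing K8484 cells, 1 line derived from a KPC mouse pancreatic tumor, placed in the pancreas of immunocompetent C57BL/6 mice (C57BL/6 J in the methods) at 10 weeks of age. By the methods for orthotopic tumors, mice were randomized to treatment once tumors were visible by imaging on postoperative day 7. The paper's legend gives 14 days of dextrose water for the glucose and metabolite panels. It states no separate duration for the sequenced tumors. The titles in the sample labels call the tumors PDX, while their source field names the K8484 cells.

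MMPs are zinc-dependent endopeptidases that cut collagens, gelatin, proteoglycans and many cell surface proteins, and TIMPs block them by filling the active site. ADAMTS enzymes are related secreted proteases that cleave proteoglycans such as aggrecan and versican or trim procollagen before fibrils form, whereas lysyl oxidases and transglutaminase 2 join matrix proteins covalently. Pancreatic tumors are known for a dense collagenous stroma, and fibroblasts, macrophages, neutrophils and the cancer cells are all sources of these enzymes.

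The deposited values are normalized counts, that is, reads divided by 1 size factor per tumor, and the reads recovered from them numbered 29915331 to 42122304 per CTRL tumor and 29192261 to 37126175 per D30 tumor. The D30 tumors in columns T4 and T5 of the table stood apart from the others. Tumor T4 held 841 reads over 4 Y-linked genes, which had no read in the other 9 tumors, and T5 had the fewest genes with a read (20482, against 24200 to 25912 in CTRL tumors). Keratin genes of the tumor epithelium were abundant in all 10 tumors, but Epcam was sparse, with 191, 88.9, 43.9, 15.9 and 85.6 normalized counts in CTRL tumors N1, N2, N4, N5 and N6 and 6.17, 0, 62.5, 3.43 and 8.52 in D30 tumors T1, T2, T4, T5 and T7. Values below are listed in this order of tumors. In bulk RNA of this kind, fewer cells of a type and less RNA per cell cannot be told apart.

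In all, 3 members of the module had lower expression in D30 tumors and no member had higher expression at an adjusted p under 0.05 (limma on log2(normalized count + 1) with Benjamini-Hochberg adjustment over 24560 genes). The 3 genes were Mmp24, which encodes a membrane-type MMP, Mmp7, which encodes matrilysin, and Adamts12, and together they were 3 of 48 members, where 2.76% of all tested genes were called, 1.36% lower and 1.40% higher. Values of the groups did not overlap for 8 members, compared with 6.19% of all tested genes (2.87% higher and 3.32% lower). Mmp8 and Mmp12 were higher in every D30 tumor than in any CTRL tumor, and Mmp11, Mmp24, Adamts5, Adamts10, Adamts12 and Loxl1 were lower in every D30 tumor. The test was repeated under 20 alternatives, which were other scalings, pseudocounts, filters, count tests and sets of tumors. An unadjusted p under 0.05 was found for 15 of 48 members, against 17.3% of all tested genes. The log2 fold change was negative for 33 of 48 members, where 54.7% of all genes had a negative value, and the median was -0.44 over the members and -0.06 over all tested genes. Scaling tumors by library size alone shifted the median of all genes to -0.27 and that of the members to -0.67. Leaving out T4 and T5 together, 1 of the 20 alternatives, was chosen after the data were seen. Without them the same test called 11 members, 1 higher and 10 lower, where 8.57% of all genes were called (4.34% higher and 4.23% lower). Without T4 alone it called 7 members, where 6.23% of all genes were called, and without T5 alone it called 4, where 3.32% were called. On recovered reads edgeR called 4 members (Mmp8 and Mmp12 higher, Mmp24 and Adamts12 lower), where 4.13% of the genes it tested were called, and DESeq2 called 9, where 8.07% were called.

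**Figure D1:**
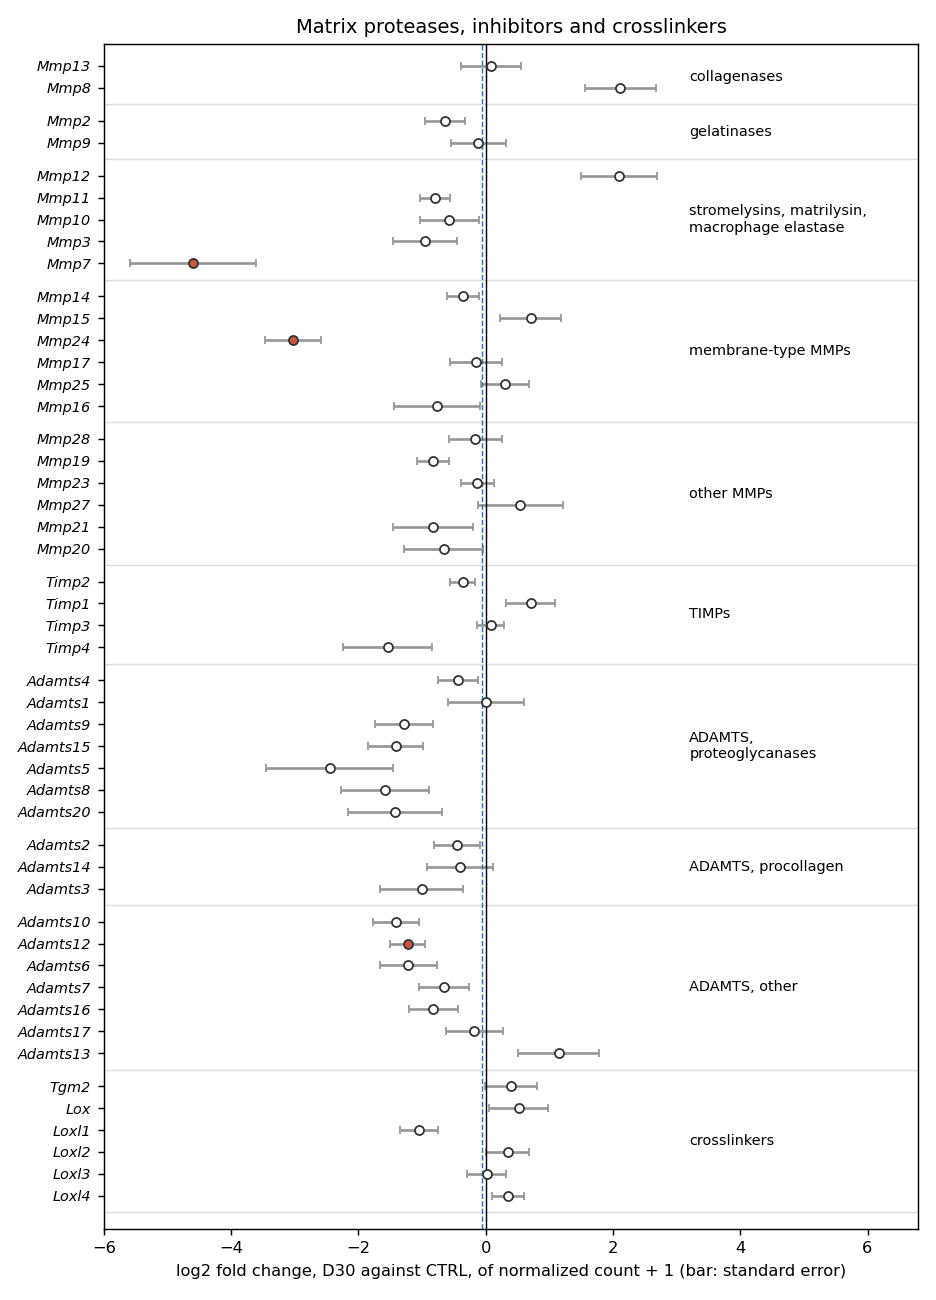
Log2 fold change (D30 against CTRL, on the log2(normalized count + 1) scale) of all 48 members by class, with bars for the standard error and 5 tumors per group. Filled points mark an adjusted p under 0.05, held by Mmp24 (-3.03), Mmp7 (-4.60) and Adamts12 (-1.23), and the dashed line is the median of all tested genes at -0.06.

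In the mouse, 10 MMP genes lie side by side in a cluster of 427 kb on chromosome 9 (GRCm38, chr9:7272514-7699585, from Mmp13 to Mmp7), and 8 of them are members. Signs of the fold change differed within the cluster. The log2 fold change was 2.10 for Mmp12 and 2.12 for Mmp8, -0.95 for Mmp3 and -0.57 for Mmp10, which lie between them, and -4.60 for Mmp7 at the far end. Promoter sequences are shown for the 6 cluster members with the highest means, because they are neighbours that differed in direction. Each run is the 100 bases upstream of a start listed by RefSeq on the plus strand of chromosome 9 (GRCm38.p6), and capitals mark a match to the AP-1 element, TGACTCA or its reverse complement TGAGTCA.
Mmp13: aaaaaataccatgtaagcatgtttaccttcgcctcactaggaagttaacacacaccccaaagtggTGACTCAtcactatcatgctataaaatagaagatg
Mmp12: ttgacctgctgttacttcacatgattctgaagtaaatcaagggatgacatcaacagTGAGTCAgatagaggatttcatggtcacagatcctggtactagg
Mmp3: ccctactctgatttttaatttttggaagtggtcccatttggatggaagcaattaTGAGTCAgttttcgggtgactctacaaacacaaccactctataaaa
Mmp10: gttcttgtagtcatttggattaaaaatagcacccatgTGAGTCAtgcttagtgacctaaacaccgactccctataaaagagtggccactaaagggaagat
Mmp8: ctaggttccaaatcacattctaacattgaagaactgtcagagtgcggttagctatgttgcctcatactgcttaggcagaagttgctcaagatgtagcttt
Mmp7: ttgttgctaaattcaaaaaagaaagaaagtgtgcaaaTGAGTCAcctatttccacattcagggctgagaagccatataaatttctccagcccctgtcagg
The runs lie at chr9:7272414-7272513 for Mmp13, chr9:7347274-7347373 for Mmp12, chr9:7445722-7445821 for Mmp3, chr9:7502242-7502341 for Mmp10, chr9:7558329-7558428 for Mmp8 and chr9:7691990-7692089 for Mmp7, and RefSeq lists 2 starts for Mmp12 and Mmp7. In the 250 bases upstream of the start, 5 of the 33 promoter windows found for 30 members held the AP-1 element, compared with 4.46% of 32851 windows of all genes. All 5 belonged to the cluster: Mmp3, Mmp7, Mmp10, Mmp12 and Mmp13. For Mmp12 and Mmp7 the start shown was chosen because its window held the element, and the window of the other start did not. The element lay 35 bases upstream of the start in Mmp13 and 63 bases upstream in both Mmp10 and Mmp7, and it was not in the window of Mmp8. The genes with these letters thus included members with positive and with negative fold changes. TATAAA was found in 7 of the 33 windows (12.4% of all windows) and the GC box GGGCGG in 16 of the 33 (32.7% of all windows), on either strand, and matches to the 3 motifs cannot overlap one another.

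**Figure D2:**
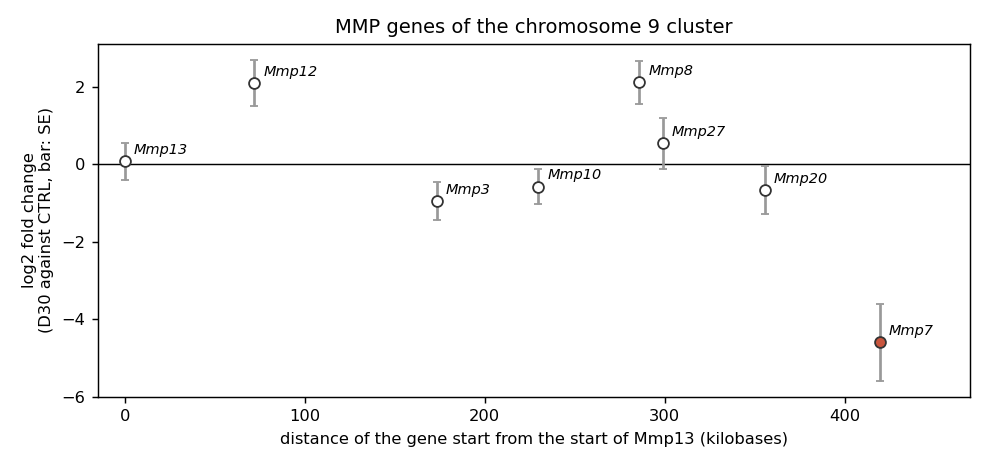
Log2 fold change (y axis, D30 against CTRL, bars for the standard error, 5 tumors per group) of the 8 members of the chromosome 9 MMP cluster against the distance of each gene's start from that of Mmp13 in kilobases (x axis). Mmp12 (2.10) and Mmp8 (2.12) lie above 0, Mmp3 (-0.95) and Mmp10 (-0.57) lie between them and below 0, and Mmp7 (-4.60), the filled point, was the only one with an adjusted p under 0.05.

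Among the collagenases, which open the fibrillar collagen triple helix, Mmp13 was the major transcript and Mmp8 was minor. Mmp8, the collagenase that neutrophils store in granules, had 60.0, 52.0, 44.8, 39.0 and 50.5 normalized counts in CTRL tumors and 67.9, 123, 244, 989 and 226 in D30 tumors. Every D30 tumor lay above every CTRL tumor, by little in T1 and by most in T5. Group means were 49.2 ± 7.91 (SD, n = 5) and 329.9 ± 376 (SD, n = 5). The log2 fold change was 2.12 ± 0.558 (SE, limma adjusted p = 0.0635), which did not pass the threshold. The two-sided exact permutation p of 0.00794 was the smallest that 5 tumors against 5 allow. Every member whose groups do not overlap has this value. Here, and for Mmp12, Mmp24 and Adamts12 below, it therefore restates the separation and adds no support. The count tests on recovered reads called Mmp8 higher (adjusted p = 0.0311 with edgeR and 0.000115 with DESeq2, the latter the lowest of 20 alternatives that reached up to 0.149). Without T4 and T5 its log2 fold change was 1.32 (adjusted p = 0.0545), and without T1 it passed (adjusted p = 0.0257). Neutrophil markers had the same sign: the 10 listed genes all had positive fold changes with none called, and their sum was 799 to 4123 normalized counts in the CTRL group and 1317 to 16146 in the D30 group, with the highest sum in T5. Ly6g was at 0 in N6, Mpo in N2 and Elane in T4, and the part of these cells in the Mmp8 values was not tested. Mmp13 had 4207, 2357, 4803, 1956 and 1433 normalized counts in CTRL tumors and 2091, 1536, 10162, 2690.1 and 2019 in D30 tumors. Tumor T4 lay far above the rest and the other D30 tumors lay within the CTRL range. The log2 fold change of Mmp13 was 0.08 ± 0.477 (SE, limma adjusted p = 0.955), and it turned to -0.51 without T4 and T5 and to -0.14 with library-size scaling.

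Mmp12, grouped here with the stromelysins and related enzymes, is the macrophage elastase. It had 1728, 915, 1451, 964 and 798 normalized counts in CTRL tumors and 2511, 1897, 30982, 5018 and 3453 in D30 tumors. The groups did not overlap, and T4 lay far above the other 9 tumors. Group medians were 964 and 3453, and the log2 fold change was 2.10 ± 0.598 (SE, limma adjusted p = 0.0844, exact permutation p = 0.00794, two-sided). Without T4 Mmp12 was called higher, with a log2 fold change of 1.43 (adjusted p = 0.0143). Without both T4 and T5 it was called at 1.18 (adjusted p = 0.0343), and over 20 alternatives the adjusted p ran from 0.000366 to 0.204. Macrophage markers mostly had the opposite sign to Mmp12. Of 10 listed genes, 9 had negative fold changes and 2 of these, Cd163 and Csf1r, fell, yet the sum was highest in T4 at 73788 normalized counts, compared with 29320.2 to 62728 in CTRL tumors and 12477 to 24500.4 in the other D30 tumors. No marker of the list was at 0 in any tumor, and its part in the Mmp12 values was not tested. Mmp12 overlaps Mmp1b on the opposite strand, which had at most 0.885 normalized counts in any tumor.

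Mmp7 encodes matrilysin, a small MMP made mainly by epithelial cells. It had 230.4, 139, 111, 56.7 and 109.5 normalized counts in CTRL tumors and 0, 0, 77.5, 5.72 and 4.26 in D30 tumors. The gene was without a read in T1 and T2 and close to 0 in T5 and T7, whereas T4 lay within the CTRL range. Mmp7 fell by 4.60 on the log2 scale (SE 0.993, limma adjusted p = 0.0261), although the groups overlapped through T4. Without T4 the log2 fold change was -5.60 (adjusted p = 0.000799), and without T4 and T5 it was -6.09 (adjusted p = 0.00146). The call was lost when any other single tumor was left out, with adjusted p values up to 0.0810, and with edgeR (log2 fold change -2.87, adjusted p = 0.158) and DESeq2 (-2.89, adjusted p = 0.174, the highest of 20 alternatives). Epcam, an epithelial marker, had a similar order of tumors, with its lowest values in T1, T2, T5 and T7 and 62.5 normalized counts in T4, at a limma adjusted p of 0.0990. The 8 tumor epithelium markers together did not follow Epcam: 7 had positive fold changes with none called, and their sum was 248955 to 371963 normalized counts in the CTRL group and 369740.5 to 572798 in the D30 group. The part of epithelial cells in the Mmp7 values was not tested.

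The 3 stromelysins are Mmp3, Mmp10 and Mmp11. Mmp11, a stromelysin made largely by stromal cells, had 862, 1413, 802, 1335 and 870.2 normalized counts in CTRL tumors and 589, 435, 532, 797 and 669 in D30 tumors. The groups did not overlap, and T5 came closest to the lowest CTRL tumor. Its log2 fold change was -0.79 ± 0.235 (SE, limma adjusted p = 0.0985), and it was called lower with DESeq2 (adjusted p = 0.0216), with library-size scaling and without T4 and T5 (adjusted p = 0.0491), within a range of 0.0216 to 0.274. Chchd10 overlaps it on the opposite strand, at means of 35.9 and 84.0 normalized counts in CTRL and D30 tumors, and because counting by strand was not stated, reads of members and of such partners cannot be told apart. Mmp3 ranged from 56.7 to 376 normalized counts in CTRL tumors and from 49.3 to 157 in D30 tumors, and Mmp10 from 184 to 595 and from 142 to 815, so that both overlapped.

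The gelatinases, which digest denatured collagen and basement membrane collagen, were not called. Mmp2 had 2656, 3752, 2651, 2039 and 2374 normalized counts in CTRL tumors and 2334, 1628, 708, 2041 and 2554 in D30 tumors, and T4 was the lowest. The Mmp2 log2 fold change was -0.64 ± 0.317 (SE, limma adjusted p = 0.325) and -0.31 without T4 and T5. Mmp9 ranged from 339.9 to 1046 normalized counts in CTRL tumors and from 278 to 1076 in D30 tumors, with a log2 fold change of -0.11.

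Mmp24, which encodes the membrane-type protease MT5-MMP, was the member called most often. It had 495, 824, 396, 592 and 536 normalized counts in CTRL tumors and 68.9, 35.5, 28.9, 144 and 128 in D30 tumors. The highest D30 tumor, T5, was far below the lowest CTRL tumor, N4, and T4 was the lowest of all. Group means were 569 ± 159.8 (SD, n = 5) and 81.1 ± 52.7 (SD, n = 5). Mmp24 fell by 3.03 on the log2 scale (SE 0.434, limma adjusted p = 0.00343, two-sided exact permutation p = 0.00794). It was the only member called in all 20 alternatives, with adjusted p values from 1.72e-08 to 0.0154, and without T4 and T5 its log2 fold change was -3.0 (adjusted p = 0.00296). The gene spans chr2:155775342-155818366 in GENCODE M21 (GRCm38, plus strand). BC029722 overlaps it on the opposite strand, and this gene had means of 1461 and 1447 normalized counts in CTRL and D30 tumors. The 100 bases upstream of its RefSeq start (chr2:155775242-155775341, plus strand, GRCm38.p6) are shown because Mmp24 was the most stable call. Capitals mark the GC box GGGCGG or its reverse complement CCGCCC, which matched at 63 and 50 bases upstream of the start.
Mmp24: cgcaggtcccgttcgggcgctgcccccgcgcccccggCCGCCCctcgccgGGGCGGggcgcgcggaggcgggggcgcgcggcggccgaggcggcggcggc
Its window held no TGACTCA on either strand.

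Mmp14, the membrane-type MMP that activates proMMP2 at the cell surface, was the most abundant MMP per kilobase of exon, at a mean of 1763 normalized counts per kilobase over the 10 tumors. Its values were 8013, 13952, 13245, 11586 and 11532 normalized counts in CTRL tumors and 10857, 7514, 5522, 13269 and 9605 in D30 tumors. The groups overlapped, with T4 lowest, and the log2 fold change was -0.36 ± 0.249 (SE, limma adjusted p = 0.499). Mmp15, another MMP anchored by a transmembrane segment, ranged from 766 to 2152 in CTRL tumors and from 629 to 4846 in D30 tumors, with a log2 fold change of 0.70 (limma adjusted p = 0.483) that was 1.16 without T4 (adjusted p = 0.0535). The remaining membrane-type members Mmp16, Mmp17 and Mmp25 were at low levels, with 57.6 normalized counts or fewer in every tumor, and were not called.

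The 6 other MMP members were not called either. Mmp28 (epilysin), the most abundant of them, had 677, 1344, 1376, 2113 and 1854 normalized counts in CTRL tumors and 2254, 1942, 465, 869 and 1593 in D30 tumors. Its log2 fold change was -0.16 ± 0.423 (SE, limma adjusted p = 0.886) and changed sign to 0.47 without T4 and T5. Mmp19 ranged from 379.8 to 589 normalized counts in CTRL tumors and from 179 to 429 in D30 tumors, where only T5 overlapped the CTRL range. Its log2 fold change was -0.83 (adjusted p = 0.106), and it was called lower with DESeq2, with library-size scaling, without T5 and without both T4 and T5. Mmp23 overlapped between groups (log2 fold change -0.13). Mmp20, Mmp21 and Mmp27 were sparse, and Mmp27 was highest in T4.

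**Figure D3:**
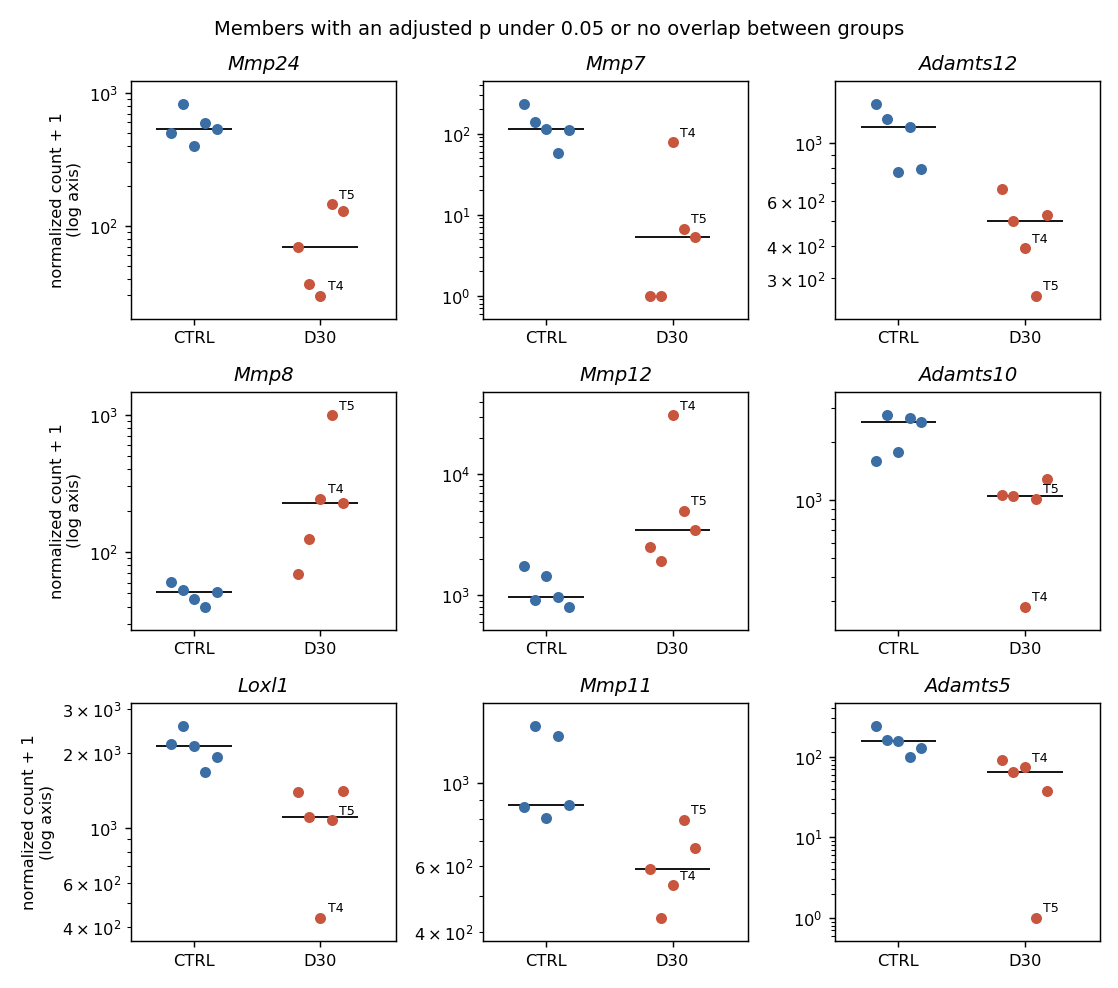
Normalized count + 1 (log axis) of 9 members in each CTRL (blue) and D30 (red) tumor, with a line at the group median and tumors T4 and T5 named. Mmp24 and Adamts12 were lower in every D30 tumor, T4 kept 77.5 normalized counts of Mmp7, and T4 and T5 held the highest values of Mmp12 (30982) and Mmp8 (989).

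None of the 4 TIMP genes was called. Timp1 and Timp2 were the most abundant members of the module per kilobase of exon, at 4219 and 2473 normalized counts per kilobase over the 10 tumors. Timp2, which also takes part in the activation of proMMP2 by MT1-MMP, had 8867, 12375, 11097, 11341 and 10167 normalized counts in CTRL tumors and 6856, 6738, 10568, 10672 and 7682 in D30 tumors. T1, T2 and T7 lay below all CTRL tumors, while T4 and T5 lay within their range. The Timp2 log2 fold change was -0.36 ± 0.194 (SE, limma adjusted p = 0.364) and -0.60 without T4 and T5, where it was called lower (adjusted p = 0.0282), the lowest of a range that reached 0.602. Timp1, an inducible inhibitor that responds to inflammatory signals, had 3502, 2813, 3223, 1433 and 2338 normalized counts in CTRL tumors and 2775, 2037, 6324, 9254 and 3768 in D30 tumors. T4, T5 and T7 exceeded all CTRL tumors, whereas T1 and T2 lay within the CTRL range. The Timp1 log2 fold change was 0.71 ± 0.383 (SE, limma adjusted p = 0.369), and it was 0.42 without T5 and 0.12 without T4 and T5. Timp3, the inhibitor that binds to the matrix, ranged from 2469 to 4127 normalized counts in CTRL tumors and from 2484 to 4423 in D30 tumors. Timp4 was sparse, with at most 19.2. Each of Timp1, Timp3 and Timp4 overlaps a synapsin gene on the opposite strand (Syn1, Syn3 and Syn2), and the highest mean of these partners was 68.8 normalized counts, for Syn1 in D30 tumors.

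Inhibitors and proteases were set side by side as summed levels per kilobase of exon in each tumor, as a description. Exon length was the union of exons over all annotated transcripts of a gene. It was 7.24 kb for Mmp12 and 1.72 to 2.67 kb for Mmp10, Mmp3, Mmp8 and Mmp13. Ranks, sums and shares per kilobase, here and above, depend on these lengths. The ratio of summed TIMP to summed MMP was 0.880 to 1.16 in CTRL tumors (median 1.0) and 0.940 to 2.0 in D30 tumors (median 1.01). Only T5 exceeded the CTRL range. Mmp12 made up 40.7% of the summed MMP level in T4 and 5.66% to 10.1% in the other D30 tumors, compared with 1.88% to 4.11% in CTRL tumors. With Mmp12 left out of the sum, the ratio was 0.902 to 1.21 in CTRL tumors. T4 (1.66 in place of 0.986), T5 (2.22) and T7 (1.23) then exceeded the CTRL range, while T1 (1.08) and T2 (0.996) lay within it. Mmp14 supplied 23.1% to 36.7% of the summed MMP level in CTRL tumors but 8.80% in T4.

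**Figure D4:**
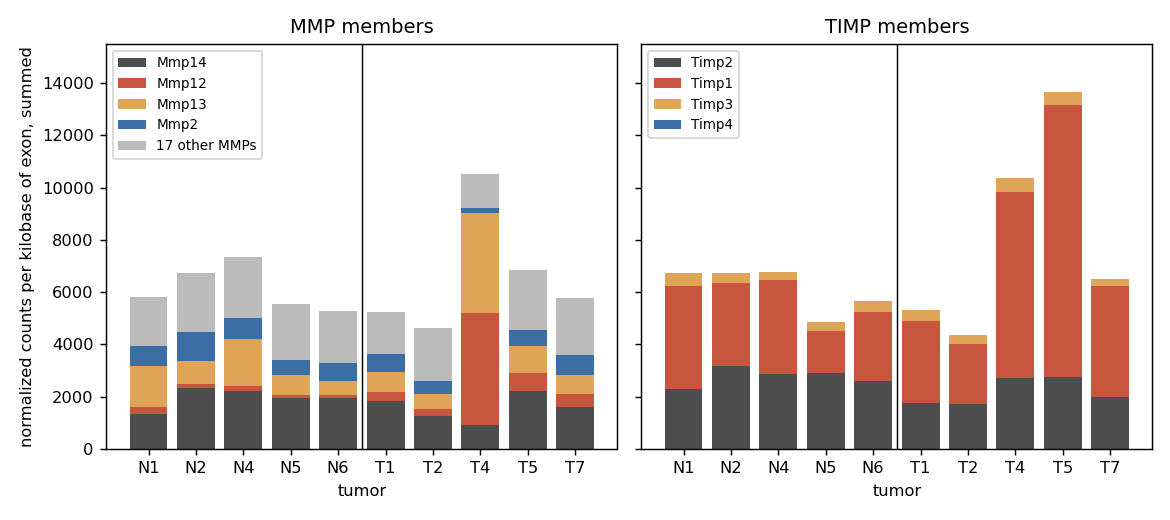
Normalized counts per kilobase of exon (y axis), summed over the 21 MMP members (left) and the 4 TIMP members (right) in each tumor (x axis, N columns CTRL, T columns D30), with colors for single genes. Mmp12 and Mmp13 fill most of the T4 bar, where Mmp12 made up 40.7% of the MMP sum, and Timp1 fills most of the T5 bar, the tumor with the highest TIMP to MMP ratio (2.0).

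The ADAMTS family lay mostly on one side. The log2 fold change was negative for 15 of 17 members, with a median of -1.01, while Adamts1 and Adamts13 were at or above 0, and 14 to 16 of 17 were negative across the alternatives that tested all 17. One member, Adamts12, was called. It encodes a protease that cleaves cartilage oligomeric matrix protein and had 1418, 1238, 773, 1158 and 793 normalized counts in CTRL tumors and 664, 498, 392, 256 and 528 in D30 tumors. The groups did not overlap, with T5 lowest and T1 nearest to CTRL. Group means were 1076 ± 284 (SD, n = 5) and 468 ± 153 (SD, n = 5). Adamts12 fell by 1.23 on the log2 scale (SE 0.277, limma adjusted p = 0.0325, two-sided exact permutation p = 0.00794). It was also called with edgeR (adjusted p = 0.0320) and DESeq2 (adjusted p = 0.00146, the lowest of 20 alternatives) and without T4 and T5 (log2 fold change -0.90, adjusted p = 0.0385). The call was lost when N1, N2, N5, N6, T2 or T7 was left out, with adjusted p values up to 0.108. The gene spans chr15:11064790-11349231 in GENCODE M21 (GRCm38, plus strand).

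Adamts10, which encodes a protease that associates with fibrillin microfibrils, had 1596, 2756, 1781, 2659 and 2554 normalized counts in CTRL tumors and 1063, 1042, 278, 1015 and 1286 in D30 tumors. The groups did not overlap, and T4 was set apart below the other D30 tumors. For Adamts10 the log2 fold change was -1.41 ± 0.368 (SE, limma adjusted p = 0.0615), which did not pass the threshold. Without T4 it was -1.01 and passed (adjusted p = 0.00875), and it passed without T4 and T5 (-0.98, adjusted p = 0.0211), with library-size scaling and with DESeq2 (adjusted p = 0.00891), within a range of 0.00875 to 0.172. Adamts6, a close homologue of Adamts10, ranged from 249 to 538 normalized counts in CTRL tumors and from 68.7 to 460.2 in D30 tumors. T4 and T5 reached into the CTRL range, and Adamts6 was called lower without T5 and without both.

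The proteoglycanases Adamts1, Adamts4, Adamts5, Adamts8, Adamts9, Adamts15 and Adamts20, which cleave aggrecan, versican and related core proteins, were not called. Adamts5, a main aggrecanase of mouse cartilage, had 238, 163, 155, 97.4 and 127 normalized counts in CTRL tumors and 89.5, 63.0, 72.9, 0 and 36.2 in D30 tumors. The highest D30 tumor lay below the lowest CTRL tumor and T5 had no read. The Adamts5 log2 fold change was -2.45 ± 0.999 (SE, limma adjusted p = 0.226), and it was -1.33 without T4 and T5, where it was called lower (adjusted p = 0.0494, the lowest of a range that reached 0.395). Adamts4, the most abundant of this class, had 723, 1059, 876, 894 and 837 normalized counts in CTRL tumors and 981, 734, 253, 798 and 751 in D30 tumors. T4 alone lay far below the rest, and the log2 fold change was -0.44 ± 0.317 (SE, limma adjusted p = 0.516). Adamts1 was within 154 to 614 normalized counts in 9 tumors and at 2913 in T5. Adamts9 and Adamts15 had their 2 lowest values in T4 and T5, from 35.5 to 65.9 normalized counts, and log2 fold changes of -1.28 and -1.41. Adamts15 was called lower with DESeq2 (adjusted p = 0.0211).

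The 3 procollagen N-proteinases, Adamts2, Adamts3 and Adamts14, remove the amino-terminal propeptide of fibrillar collagens. Adamts2 had 761, 1407, 1327, 986 and 1051 normalized counts in CTRL tumors and 1014, 576, 362, 1826 and 800.0 in D30 tumors. T5 was the highest and T4 the lowest of all 10 tumors, and the log2 fold change was -0.45 ± 0.363 (SE, limma adjusted p = 0.568). Adamts14 had the same extremes, 294 normalized counts in T5 and 37.0 in T4, with 51.5 to 182 in CTRL tumors. Adamts7, Adamts16 and Adamts17 had negative log2 fold changes that were not called, and Adamts13, the von Willebrand factor protease, was at 12.6 normalized counts or fewer in every tumor.

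None of the 6 crosslinkers was called. Loxl1, a lysyl oxidase needed for elastic fiber assembly, had 2175, 2557, 2125, 1679 and 1926 normalized counts in CTRL tumors and 1396, 1105, 433, 1070.3 and 1401 in D30 tumors. The groups did not overlap and T4 was the lowest. Group means were 2092 ± 325 (SD, n = 5) and 1081 ± 395 (SD, n = 5). For Loxl1 the log2 fold change was -1.05 ± 0.295 (SE, limma adjusted p = 0.0796), and it was called lower without T4 (log2 fold change -0.75, adjusted p = 0.0174), without T4 and T5 (adjusted p = 0.0283) and with DESeq2 (adjusted p = 0.0250), within a range of 0.0174 to 0.217. Lox, the founding lysyl oxidase of collagen and elastin crosslinking, had 2709, 2795, 2694, 1271 and 2151 normalized counts in CTRL tumors and 2515, 1659.8, 3011, 12779.5 and 2095 in D30 tumors. T5 was far above the rest, and the other D30 tumors lay near the CTRL values (log2 fold change 0.52, adjusted p = 0.613). Loxl2, Loxl3 and Loxl4 were also highest in T5, at 3805, 1872 and 1082 normalized counts. The LOX family, with 4 of 5 log2 fold changes above 0, had 2 of 5 above 0 without T4 and T5, and 3 of 5 with library-size scaling or without N4, N6, T1 or T5.

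Tgm2, which encodes transglutaminase 2 and forms glutamine to lysine bonds, had 3717, 6061, 5126, 8296 and 6045 normalized counts in CTRL tumors and 9459, 9645, 2119, 11624 and 10059 in D30 tumors. T1, T2, T5 and T7 lay above every CTRL tumor, whereas T4 lay below every CTRL tumor. For Tgm2 the log2 fold change was 0.39 ± 0.410 (SE, limma adjusted p = 0.674). Without T4 it was 0.85 and Tgm2 was called higher (adjusted p = 0.0281), the only call among 20 alternatives that reached up to 0.859, and without T4 and T5 it was 0.78 (adjusted p = 0.0625).

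Single tumors held the extremes of many members. T4 was the lowest tumor for 18 of 48 members, among them Mmp2, Mmp14, Mmp24, Adamts10, Loxl1 and Tgm2, and the highest for Mmp12, Mmp13, Mmp27 and Timp3. Where several tumors had no read, the lowest place went to the first of them in column order, as for Timp4 in T4. Such ranks were not counted over all genes. T5 was the highest tumor for 12 members, among them Lox, Loxl2, Loxl3, Loxl4, Timp1 and Tgm2, and 8 members had no read in it. N2 was the highest tumor for 14 members and N6 for 0. Fibroblast markers stood beside this pattern: all 10 listed genes had negative fold changes with none called, and their sum was 80408 to 142607 normalized counts in the CTRL group and 32313 to 108203 in the D30 group, with the lowest sum in T4 and no marker at 0. The highest sum, in CTRL, was that of N2. Acinar marker sums were 31642 normalized counts in N2 and 68896 in N6. They were 276 to 3460 in the other CTRL tumors and 144 to 6743 in D30 tumors. Of the 9 acinar genes, 8 had negative fold changes and none was called. All 7 T cell markers also had negative fold changes with none called. Endothelial marker sums were lower in every D30 tumor (6936 to 10786 normalized counts) than in any CTRL tumor (11988 to 19386), although 2 of the 8 genes had positive fold changes and Cdh5 was the only call, lower in D30. The part of these cell types in the member values was not tested.

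**Figure D5:**
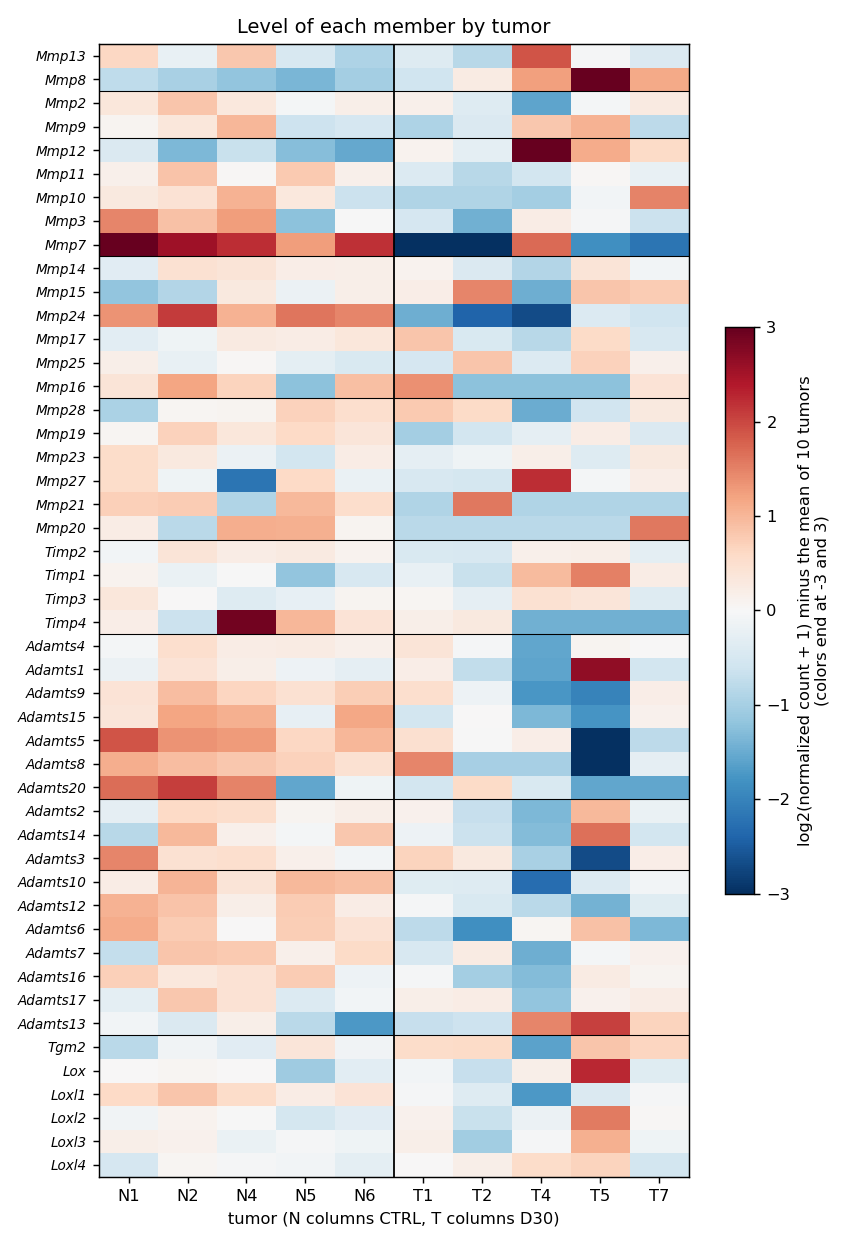
Level of each of the 48 members (rows) in each tumor (columns, N columns CTRL, T columns D30) as log2(normalized count + 1) minus the mean of the 10 tumors, with colors ending at -3 and 3. T4 is blue for most ADAMTS genes and red for Mmp12 and Mmp13, T5 is red for the lysyl oxidases Lox and Loxl2, and Mmp24 is red in all CTRL tumors and blue in all D30 tumors.

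Genes that work with the module were counted from 6 lists, of which 90 of 93 genes could be tested and 3 were called, where 2.76% of all tested genes were. Acan, which encodes aggrecan, a substrate of the ADAMTS proteoglycanases, rose, with 459, 880.5, 883, 375 and 464 normalized counts in CTRL tumors and 4071, 1487, 2425, 4132 and 1691 in D30 tumors. Every D30 tumor lay above every CTRL tumor (log2 fold change 2.14, SE 0.347, limma adjusted p = 0.00656). Among 21 matrix substrates, 2 had positive and 19 negative fold changes, and Col6a1, a chain of microfibrillar type VI collagen, fell by 1.02 on the log2 scale (SE 0.247, limma adjusted p = 0.0451). In the plasminogen system, which produces plasmin and can activate proMMPs, Serpine2, encoding the inhibitor protease nexin-1, fell by 1.20 on the log2 scale (SE 0.250, limma adjusted p = 0.0222) and was the only call among 10 genes. None was called among 24 other matrix proteases, 11 other inhibitors, 5 ADAMTS-like genes or 20 genes of collagen maturation. The genes of smallest p in these lists were Adam19 (log2 fold change -1.09, adjusted p = 0.0510), Wfdc2 (2.07, adjusted p = 0.0803), Adamtsl4 (0.82, adjusted p = 0.295) and P4ha1 (1.0, adjusted p = 0.0589). Without T4 and T5 the number of calls over the 6 lists was 10, where 8.57% of all tested genes were called.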

How the data were processed

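RNA of 5 CTRL and 5 D30 tumors was analyzed, and samples were grouped by their labels. Libraries were strand-specific. The submitters' processing notes list CASAVA, FastQC, Trim Galore, STAR (2.7.0e), DESeq2 and the build GRCm39, while the methods name hg38 and the paper's list of software adds RSEM; the counting settings and the annotation release are not given in the sources used here. For every gene and tumor the authors deposited a normalized signal, namely reads scaled by 1 size factor per tumor. Of these values, 100.0% came out as whole reads (tolerance 0.05) once that factor was undone. Columns named N were assigned to CTRL by their letter and columns named T to D30 as the only other group, and no column was tied to a single animal. No column was left unused (0). The methods state that male and female mice were used in equal numbers, and the sex of each column was not given. Reads of Y-linked genes were found in T4 alone, which does not match equal numbers of the sexes among the tumors sequenced. Whether the other differences of T4 go with sex was not tested.

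Gene names, exon lengths and positions came from GENCODE M21 (GRCm38), to which 94.1% of identifiers could be matched, and promoter windows from RefSeq (GRCm38.p6). These are not the authors' annotation. All 24560 genes with a mean of at least 1 were tested by limma (3.58.1, R 4.3.3) with a mean-variance trend on log2(normalized count + 1), with Benjamini-Hochberg adjustment and calls at an adjusted p under 0.05. For sparse genes this scale can compress fold changes or enlarge them. Timp4 had a log2 fold change of -1.54 in limma and -2.72 in DESeq2. For Mmp7, without a read in T1 and T2 but at 77.5 normalized counts in T4, the values were -4.60 and -2.89. Such gaps were not limited to sparse genes: for Mmp12, highest in T4, the values were 2.10 and 2.90. The count tests on recovered reads, edgeR (4.0.16), which called 707 genes, and DESeq2 (1.42.0), which called 1982, were alternatives, as were other scalings, pseudocounts, filters and the omission of tumors. Scripts were tested on simulated data. Values of single genes were also compared by two-sided exact permutation tests. Where groups do not overlap, the p of this test is fixed at its smallest value. Members with an adjusted p under 0.05, members whose groups did not overlap and the member with the highest mean of each class were described in full. In each companion list, called genes and otherwise the gene of smallest p were named. Other members, and the promoters shown, were chosen after their values were seen. The members and lists were chosen with earlier results of these data known. Figures were drawn with matplotlib (3.10.9). Values of some genes that overlap members are not reported here.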

Additional observations from a re-analysis of the deposited data

Results flagged for a closer look

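Each group of 5 tumors was tested for a value far from the others (Dixon's test, 95% critical value 0.71) over all 48 members and 5 summed levels or ratios. Of 106 such groups, 20 had one. Chance gives about 1 in 20 only for normally distributed values and independent groups. Here the counts were not log-transformed, some members were sparse, and the groups share tumors and include sums of members. An excess over chance therefore cannot be read from the 20. Of the 20 groups with such a value, 7 had it in tumor T4, 7 in tumor T5, 4 in other D30 tumors and 2 in CTRL tumors, and the cause was not tested.

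Tumor T4 was set apart at the top for Mmp12 (30982 normalized counts, next D30 value 5018), Mmp13 (10162, next 2690.1), Mmp7 (77.5, next 5.72) and Mmp27 (59.0, next 13.8). It was set apart at the bottom for Adamts10 (278 normalized counts, next 1015), Adamts17 (5.78, next 16.0) and Tgm2 (2119, next 9459). Tumor T5 was set apart at the top for Lox (12780 normalized counts, next 3011), Loxl2 (3805, next 1421), Adamts1 (2913, next 533), Adamts14 (294, next 83.3) and Mmp8 (989, next 244). It was also set apart for the ratio of summed TIMP to summed MMP levels per kilobase (2.0, next 1.13) and for the summed LOX family level (4367 normalized counts per kilobase, next 1593).

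The other D30 tumors were set apart at the top for Mmp10 in T7 (815 normalized counts, next 271), Adamts8 in T1 (23.6, next 6.39), Mmp20 in T7 (4.26) and Mmp21 in T2 (4.58), the last pair with no read in any other D30 tumor. In the CTRL group, Timp4 was set apart in N4 (19.2 normalized counts, next 4.43) and Adamts3 in N1 (16.8, next 8.22).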

How the results depend on the processing

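No paired analysis was possible because the columns do not carry the replicate numbers of the labels, so no replicate block could be fitted. The paper describes no pairing of CTRL with D30 tumors either. Its methods state that mice with tumors were randomized to treatment, and the unpaired test follows that design. The 3 calls among 48 members became 9 with DESeq2, 6 with library-size scaling, 11 without T4 and T5 (chosen after seeing the data) and 1 to 7 when single tumors were left out (1 without N1, N2, N5, N6, T2 or T7, 2 without N4 and 7 without T4). Over all genes, 678 calls became 1982 with DESeq2, 2105 without T4 and T5 and 270.0 to 1530.0 with single tumors left out (270.0 without N2, 336 without N5, 332 without N6, 435 without T7 and 1530.0 without T4), and the split of 344 higher and 334 lower became 240 and 626 with library-size scaling and 457 and 250 with edgeR. The 3 calls of the companion lists became 5 with edgeR under either scaling, 14 with DESeq2, 6 with library-size scaling, 5 with a pseudocount of 5, 10 without T4 and T5 and 1 to 10 with single tumors left out (1 without N1, N2, N4, N5 or T2, 10 without T4). Mmp13 (0.08) reversed to -0.14 with library-size scaling and -0.51 without T4 and T5 (-0.38 to 0.30 with single tumors left out), and Mmp28 (-0.16) to 0.47 without T4 and T5 (-0.42 to 0.19). Without division by length, the median TIMP to MMP ratio was 0.658 in CTRL and 0.545 in D30 tumors, in place of 1.0 and 1.01. The cause was not tested. Of 170 fold changes of single members with 1 tumor left out, 146 kept their direction and side of the threshold and 24 did not (4 reversed, 15 lost the call and 5 gained one). Of 170 under the other settings, 147 did and 23 did not (3 reversed, 3 lost the call and 17 gained one). Sparse members rest on few reads, such as Timp4 with at most 21 in any tumor.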
